A study of Mus musculus with 10 samples.

Results

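The 48 genes described here are a chosen part of the cyclin and cyclin-dependent kinase (CDK) system of the mouse. Among them are cyclins, CDKs, CDK inhibitors, the CDC25 phosphatases with Wee1, E2F factors, the pocket proteins, and the transcription factors Foxm1 and Mybl2. They were taken by gene symbol after Ensembl gene identifiers had been matched to symbols, and all 48 were found among the 33585 genes of the series. Of these, 36 act in or on the cell cycle and 12 are cyclins and CDKs of transcription. With a mean of at least 1 FPKM (read fragments scaled to transcript length and library size) over the 10 libraries, 47 members were tested, beside 13334 genes in all. E2f7 was the member below that level.

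The data are bulk RNA-seq of tumor-draining lymph nodes (TDLNs) of wild-type female BALB/c mice, bought at 6 weeks of age, that carried 4T1 tumors, a BALB/c mammary carcinoma line injected into a mammary fat pad on day 0. All primary tumors were treated by microwave ablation (MWA) on day 10, so the ablation is shared by both groups. The MWA group, called MWA + PBS in the study, then received PBS, and the MWA+2DG group received 2-deoxy-D-glucose (2DG), a glucose analogue that blocks glycolysis, at 500 mg/kg every 2 days, until TDLNs were taken on day 15. Each group has 5 libraries, and no library of mice without ablation was analysed here. The labels number the libraries without saying that each came from a separate mouse, so p-values measure the spread between these libraries. Whole nodes were sequenced, so a level is an average over all cells of a node, and fewer cells of a type cannot be told apart from less RNA per cell.

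A cell moves through its cycle as successive cyclins switch on their CDKs. D cyclins with Cdk4 and Cdk6, then E cyclins with Cdk2, phosphorylate the pocket proteins, which releases E2F factors to transcribe genes for DNA synthesis, and A and B cyclins with Cdk1 carry the cell through late S phase, G2 and mitosis. Most lymphocytes of a resting node are quiescent, and the B cells of germinal centres are among the fastest dividing cells of the body. Another branch of the same families, from Cdk7 to Cdk13 with their own cyclins, phosphorylates RNA polymerase II or its regulators and does not follow the cycle.

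Before the comparison, the libraries themselves differed. Replicates 1 and 2 of both groups stood apart from replicates 3 to 5 of both groups along the first principal component, which held 36.4% of the variance, and limma found 488 genes that differed between these replicate sets (Benjamini-Hochberg adjusted p under 0.05). MWA+2DG replicate 5 lay at an end of the first component (-33.5) and of the second (25.6), where no other library exceeded 11.5. MWA libraries had summed FPKM of 316374 to 359984 and MWA+2DG libraries of 312143 to 325765, with the highest sum in MWA replicate 5. FPKM values hold no read counts, so depth is unknown and no counting error can be given. The node's own markers were present: all 10 T cell markers and all 10 B cell markers were tested and none was called. Liver transcripts were also present, in replicates 3 to 5: summed FPKM over 7 liver markers ran from 7.10 to 184 in MWA libraries and from 6.41 to 134 in MWA+2DG libraries, and none was called. For the members named in full, values are therefore also given within each replicate set.

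Members were compared on log2(FPKM + 1) with limma, so each fold change is a difference on that scale, MWA+2DG minus MWA, and understates the change of low genes. A gene was called by the rule of the study's methods, an unadjusted P below 0.05 with a fold change beyond 0.25, read here as log2. By this rule 6 of the 47 tested members were lower in the MWA+2DG group (12.8%), where 249 of all 13334 tested genes were (1.87%). Only 1 member, Cdkn1b, was higher (2.13%), where 127 of all tested genes were (0.952%). After Benjamini-Hochberg adjustment over all tested genes limma gave 0 genes, and so 0 members, with an adjusted p under 0.05, and the smallest adjusted p was 0.995. At an unadjusted P below 0.05 without the fold change threshold there were 567 of all 13334 tested genes and 8 of the 47 tested members. Exact permutation tests for single genes are two-sided over the 252 regroupings of the libraries and can give no p below 0.00794. With labels exchanged only within the replicate sets there are 120 regroupings, and the smallest p is 0.0167.

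The 6 lower members were Ccna2, Ccnb1, Ccnb2, Cdk1, Cdkn3 and Cdkn2c, and the first 5 of these act between S phase and mitosis. Fold changes of the 12 tested S to M members were negative in 12 of 12, with a median of -0.21, while the median over all tested genes was 0.01. The 12 transcriptional cyclins and CDKs had a median of 0.04, with 8 positive and 4 negative values and none called. None was called among the 5 G1 members (median 0.03), the 7 G1/S members (7 of 7 negative, median -0.09) and the 4 members made up of the pocket proteins and E2f4 (4 of 4 positive, median 0.06). These counts and medians are descriptions, since the members are not replicates of each other.

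**Figure D1:**
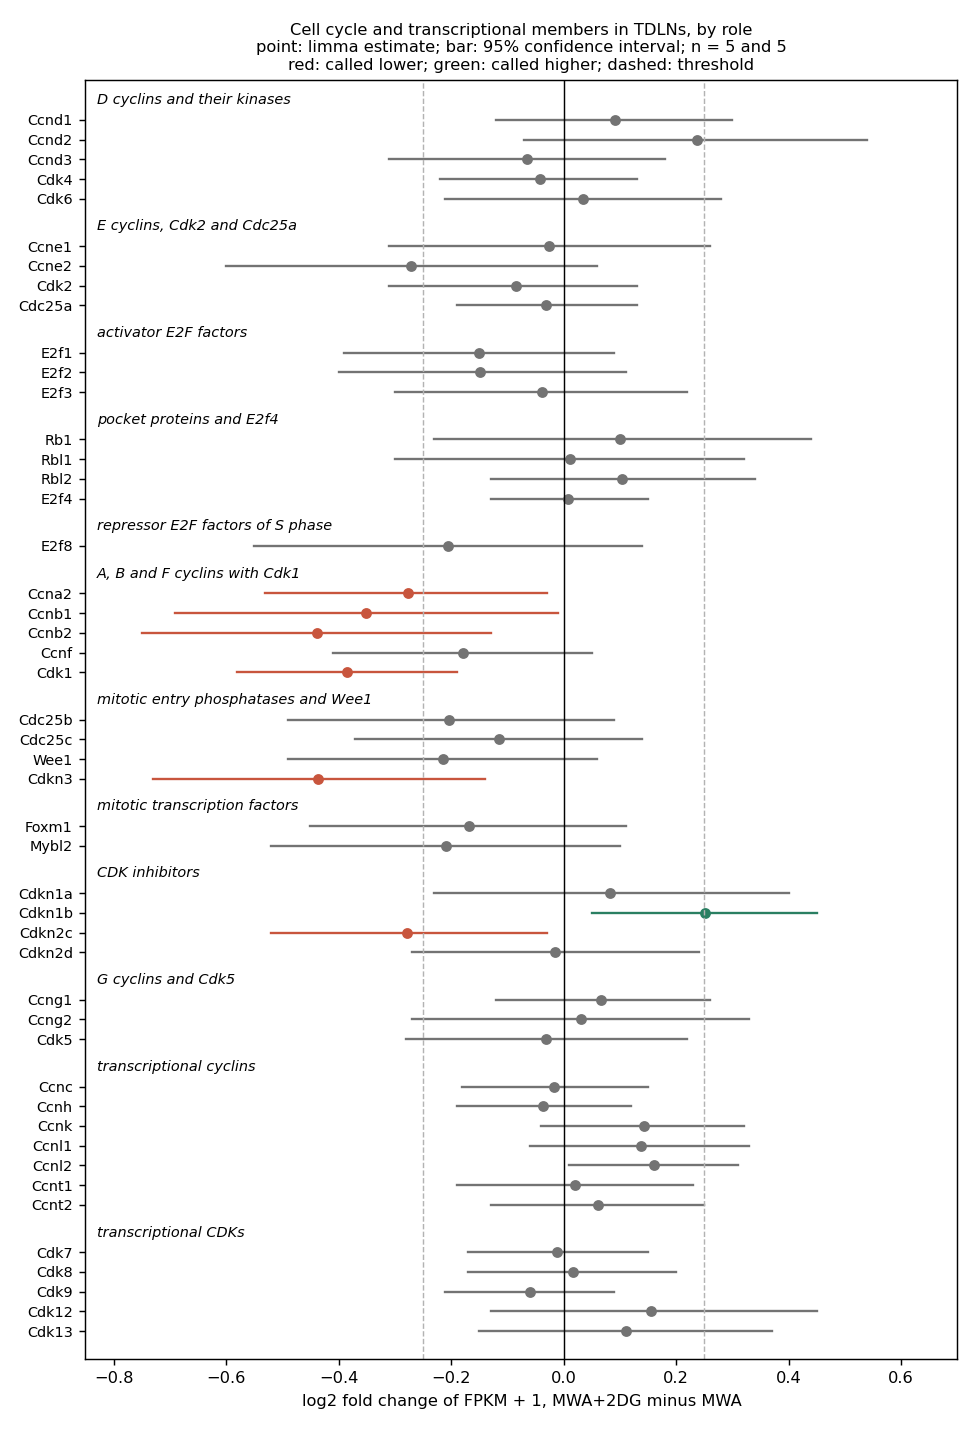
Fold changes on the log2(FPKM + 1) scale, MWA+2DG minus MWA, of the 47 tested members, grouped by role; points are limma estimates, bars their 95% confidence intervals, and dashed lines the threshold of 0.25. Intervals of the called members lie on 1 side of 0, and the 12 S to M members all lie left of 0, from -0.44 to -0.12.

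Cdk1, the kinase that drives entry into mitosis, separated the groups completely. Its FPKM was 9.03, 8.36, 8.61, 9.60 and 10.1 in MWA replicates 1 to 5 and 6.61, 6.95, 6.96, 7.89 and 5.54 in MWA+2DG replicates 1 to 5. Every MWA+2DG library lay below every MWA library, with replicate 5 of the MWA+2DG group lowest. The means, 9.14 ± 0.712 and 6.79 ± 0.847 FPKM (SD, n = 5), differed by -25.7%. On the log2 scale the fold change was -0.38 ± 0.09 (SE), with a limma P of 0.00131 and an adjusted p of 0.995 over all tested genes. By exact permutation p was 0.00794 over all regroupings and 0.0167 within the sets, in both cases the smallest possible value. The difference was -0.32 in replicates 1 and 2 and -0.43 in replicates 3 to 5. Groups that do not overlap, with MWA+2DG lower, were found for 68 of all tested genes (0.510%) and for 1 member, Cdk1.

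Ccnb2, a mitotic cyclin that activates Cdk1, gave the largest fold change among the tested members together with Cdkn3. Ccnb2 was at 26.0, 29.2, 29.2, 28.7 and 34.9 FPKM in the MWA libraries and at 21.5, 23.2, 22.6, 27.1 and 15.0 in the MWA+2DG libraries. The MWA+2DG libraries lay below all MWA libraries except replicate 4, which overlapped with them. Its fold change was -0.44 ± 0.14 (SE, limma P = 0.00971), with an exact permutation p of 0.0159 and 0.0167 within the sets, and with -0.29 in replicates 1 and 2 and -0.53 in replicates 3 to 5.

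Cdkn3 encodes a phosphatase that removes the activating phosphate from CDKs, and despite its symbol it is counted here with the mitotic entry genes. Its level was low, at 3.47, 3.45, 2.52, 2.90 and 3.82 FPKM in MWA and 1.91, 2.37, 2.51, 2.66 and 1.31 in MWA+2DG. The groups overlapped in MWA+2DG replicate 4 alone, although MWA replicate 3 was nearly as low as MWA+2DG replicate 3. Cdkn3 differed by -0.44 ± 0.14 (SE, limma P = 0.00836, exact permutation p = 0.0159 and 0.0333 within the sets). It was -0.51 in replicates 1 and 2 and -0.39 in replicates 3 to 5, and its call was lost with replicates 3 to 5 alone.

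Ccnb1, the other B cyclin of this list, depended on the replicate set. FPKM was 9.92, 9.36, 12.4, 14.1 and 14.2 in MWA and 10.1, 9.33, 9.22, 11.0 and 6.25 in MWA+2DG. MWA replicates 1 and 2 were at the level of the MWA+2DG libraries, and MWA replicates 3 to 5 were above it. The pooled fold change was -0.35 ± 0.16 (SE, limma P = 0.0453), with an exact permutation p of 0.0794 and 0.0667 within the sets. Within replicates 1 and 2 the difference was 0.01, and within replicates 3 to 5 it was -0.59. Ccnb1 was no longer called when MWA replicate 3, 4 or 5 or MWA+2DG replicate 2, 3 or 5 was left out (-0.43 to -0.23 over the 10 libraries left out in turn).

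Ccna2, the cyclin of S phase and G2, was at 19.8, 20.4, 20.5, 24.7 and 21.1 FPKM in MWA and at 17.8, 18.2, 17.1, 21.3 and 13.3 in MWA+2DG. Only MWA+2DG replicate 4 reached into the MWA range. Its fold change was -0.28 ± 0.11 (SE, limma P = 0.0332, exact permutation p = 0.0397 and 0.050 within the sets), with -0.15 in replicates 1 and 2 and -0.36 in replicates 3 to 5. Its call was lost without MWA replicate 4 or 5 and without MWA+2DG replicate 3 or 5.

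**Figure D2:**
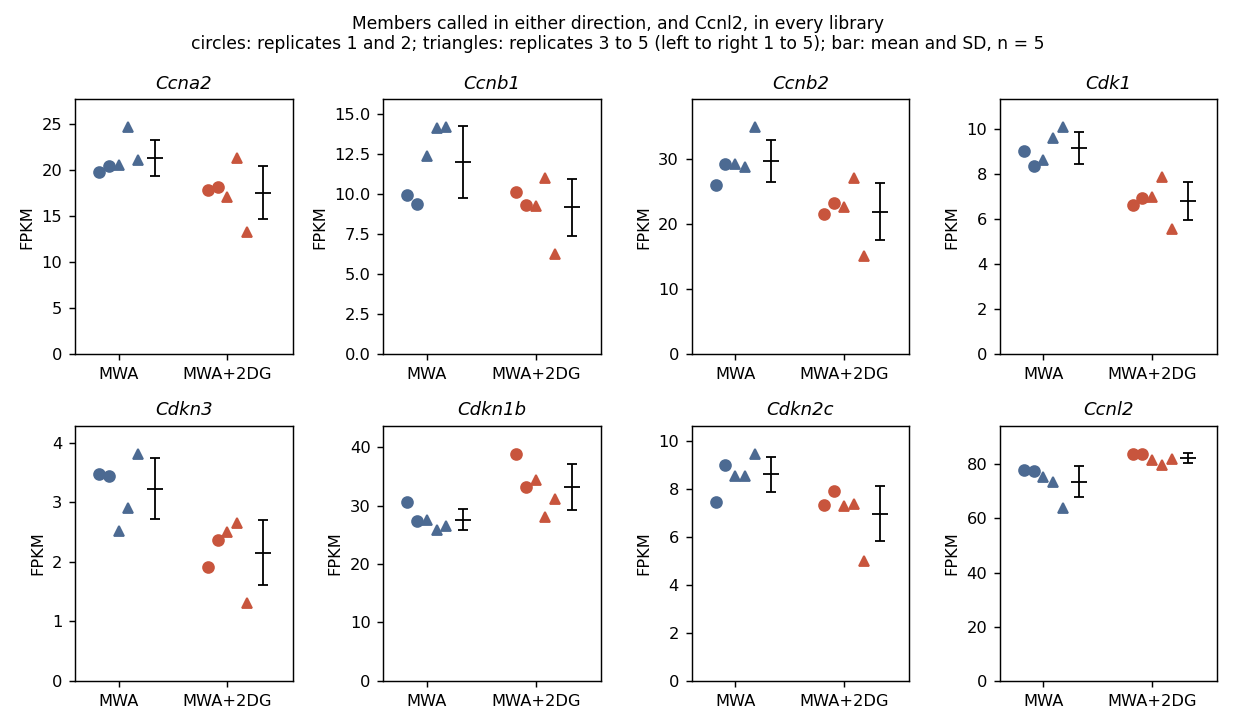
FPKM of the 7 called members and of Ccnl2 in every library of the MWA and MWA+2DG groups; circles are replicates 1 and 2, triangles replicates 3 to 5, and bars the mean with SD. Cdk1 and Ccnl2 show no overlap between groups, and MWA+2DG replicate 5 is the lowest point for Ccna2, Ccnb1, Ccnb2, Cdk1, Cdkn3 and Cdkn2c.

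Promoters of Cdk1, Ccnb2, Cdkn3 and Ccnb1 are shown, the S to M members called lower for which a promoter window was found. Whether the motifs bear on the fold changes was not tested. Mitotic genes are known to be controlled through a cell cycle genes homology region (CHR) next to CCAAT boxes, the binding sites of NF-Y. RefSeq promoter windows of build GRCm38.p6, from 250 bases before to 50 after the annotated start, were found for 37 of the 48 members (42 windows). The motifs searched on both strands were TTTGAA or TTCGAA for the CHR, CCAAT, and TTTCCCGC, TTTGGCGC, TTTCGCGC or TTTGGCGG for E2F. No match of a member overlapped a match of another motif. The 250 bases before the start are printed 5′ to 3′ on the strand of the gene, with every match in capitals.
Cdk1, chr10:69352913-69353162, minus strand: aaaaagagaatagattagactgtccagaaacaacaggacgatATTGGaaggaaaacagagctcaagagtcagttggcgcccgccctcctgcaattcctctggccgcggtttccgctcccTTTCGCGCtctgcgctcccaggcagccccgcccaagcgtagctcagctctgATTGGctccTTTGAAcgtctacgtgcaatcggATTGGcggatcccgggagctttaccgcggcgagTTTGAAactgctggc
Ccnb2, chr9:70421555-70421804, minus strand: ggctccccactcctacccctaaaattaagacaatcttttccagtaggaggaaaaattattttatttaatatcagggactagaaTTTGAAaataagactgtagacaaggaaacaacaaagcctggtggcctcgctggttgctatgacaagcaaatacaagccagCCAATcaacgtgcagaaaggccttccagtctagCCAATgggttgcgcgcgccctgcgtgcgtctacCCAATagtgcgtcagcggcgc
Cdkn3, chr14:46760291-46760540, plus strand: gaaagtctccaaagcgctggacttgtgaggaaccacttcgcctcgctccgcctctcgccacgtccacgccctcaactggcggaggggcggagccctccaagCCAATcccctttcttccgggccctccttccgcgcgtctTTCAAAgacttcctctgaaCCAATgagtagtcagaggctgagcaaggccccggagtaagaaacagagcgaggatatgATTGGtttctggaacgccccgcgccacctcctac
Ccnb1, chr13:100786487-100786736, minus strand: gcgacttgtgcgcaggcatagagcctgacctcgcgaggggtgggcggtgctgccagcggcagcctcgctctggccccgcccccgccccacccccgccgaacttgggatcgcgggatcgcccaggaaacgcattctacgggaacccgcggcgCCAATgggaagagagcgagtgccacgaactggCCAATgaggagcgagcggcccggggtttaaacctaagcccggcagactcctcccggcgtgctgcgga
In the Cdk1 window the CHR letters stood at positions -71 and -15 from the start, an E2F match at -131, and CCAAT, read on the other strand, at -208, -80 and -48. Ccnb2 had CCAAT at -87, -54 and -21 and the CHR letters at -167 and, beyond the printed stretch, at 5 after the start. Cdkn3 had the CHR letters at -111, read on the other strand, and CCAAT at -149, -92, -34 (read on the other strand) and, beyond the printed stretch, 10. Ccnb1 had CCAAT at -99 and -67 and neither TTTGAA nor TTCGAA in this window, and other forms of the CHR were not searched.

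Over the 9 windows of S to M members, 6 held the CHR letters (66.7%), 8 held CCAAT (88.9%) and 2 held an E2F match (22.2%). The shares over all 32851 windows of the table were 19.2%, 37.4% and 2.37%. None of the 11 windows of transcriptional members held the CHR letters or an E2F match, and 5 held CCAAT (45.5%). Of the 8 windows of G1/S members 4 held an E2F match (50%) and 2 held the CHR letters (25%). None of the 6 windows of CDK inhibitors held the CHR letters or an E2F match, and 3 held CCAAT (50%). Among these, Cdkn2c, called lower, had CCAAT at 8. Cdkn1b, called higher, had CCAAT at -161, -35 and 46, the last read on the other strand. A match of letters is a description of the window, not a site. The promoters of Foxm1, Rb1, Ccnd1, Ccne2, Cdc25c, E2f4, Ccnd2, Ccna2, Ccnh, Cdk5 and Wee1 were not analysed here.

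**Figure D3:**
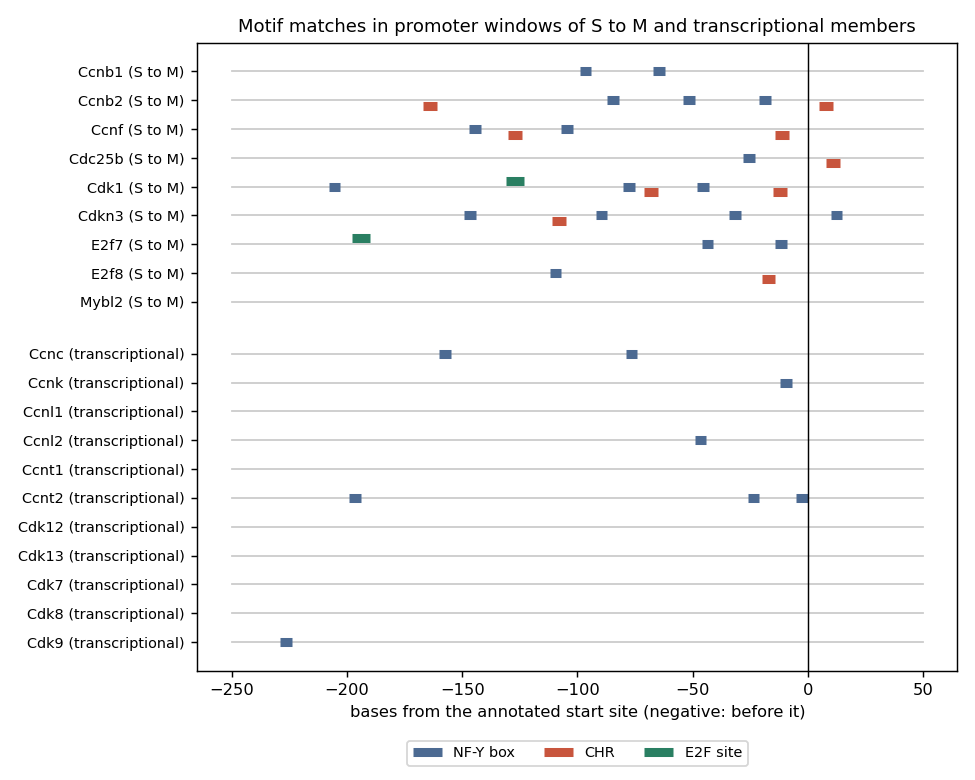
Positions of the CHR letters (red), CCAAT as NF-Y box (blue) and E2F matches (green) in the promoter windows of S to M and transcriptional members, in bases from the annotated start site. The CHR letters appear in 6 of the 9 S to M windows and in 0 of the 11 transcriptional windows.

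The remaining S to M members had negative fold changes that did not pass the rule. Ccnf, an F-box cyclin that marks proteins for degradation, was at 5.57 ± 0.582 FPKM in MWA and 4.83 ± 0.837 in MWA+2DG (SD, n = 5; fold change -0.18). The phosphatases Cdc25b and Cdc25c, which activate Cdk1, had fold changes of -0.20 and -0.12, and Wee1, the kinase that holds Cdk1 inactive, had -0.22. Thus both the activators and the inhibitor of Cdk1 had values on the same side of 0. Cdc25b was abundant at 34.0 ± 3.31 FPKM in MWA (SD, n = 5), and Cdc25c was at 1.72 ± 0.214.

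Mybl2, which joins the MuvB complex to switch on mitotic genes, and Foxm1, its partner in that task, were not called with all libraries. Mybl2 was at 6.67, 7.87, 10.5, 11.3 and 10.2 FPKM in MWA and at 6.78, 7.95, 7.71, 9.65 and 7.05 in MWA+2DG. In replicates 1 and 2 the groups were at the same level, and in replicates 3 to 5 each MWA library was above each MWA+2DG library. The fold change was -0.21 ± 0.14 (SE, limma P = 0.163, exact permutation p = 0.198), made up of 0.02 in replicates 1 and 2 and -0.36 in replicates 3 to 5. For Foxm1 it was -0.17 ± 0.13 (SE, exact permutation p = 0.246). Mybl2 was called lower without MWA replicate 1 (-0.31) and in replicates 3 to 5 alone.

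E2f7 and E2f8, the E2F factors that repress their targets late in S phase, were the lowest S to M genes beside Cdc25c and Cdkn3. E2f8 was at 2.33, 3.31, 4.13, 4.45 and 2.31 FPKM in MWA and at 2.60, 2.40, 2.38, 3.48 and 2.51 in MWA+2DG, with all MWA+2DG values inside the MWA range. E2f8 differed by -0.21 ± 0.15 (SE, limma P = 0.211, exact permutation p = 0.294), with -0.11 in replicates 1 and 2 and -0.27 in replicates 3 to 5. E2f7 was at 0.963 ± 0.428 FPKM in MWA and 0.883 ± 0.261 in MWA+2DG (SD, n = 5) and was not tested.

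Across the S to M members the same libraries set the extremes. MWA+2DG replicate 5 was the lowest of all 10 libraries for 9 of the 12 tested members, and MWA+2DG replicate 4 was the highest of its group for 11 of 12. Over all tested genes, MWA+2DG replicate 5 was also the library at an end of both principal components named above. MWA replicates 4 and 5 held the highest value for 6 and 5 of the 12 members. The mean of log2(FPKM + 1) over the 12 members was 3.08, 3.19, 3.30, 3.41 and 3.33 in MWA replicates 1 to 5 and 3.00, 3.02, 3.01, 3.27 and 2.69 in MWA+2DG replicates 1 to 5. Replicate 4 of the MWA+2DG group thus lay inside the MWA range, and the other 4 libraries of that group lay below it. Fold changes were negative for 9 of 12 members in replicates 1 and 2 (median -0.08) and for 12 of 12 in replicates 3 to 5 (median -0.36). Without MWA+2DG replicate 5 the median was -0.18 and 3 members were called lower, Cdk1, Ccnb2 and Cdkn3. Without MWA+2DG replicate 4 there were 9, the 6 named above with Ccne2, Ccnf and Wee1, and without MWA replicate 5 there were 3.

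**Figure D4:**
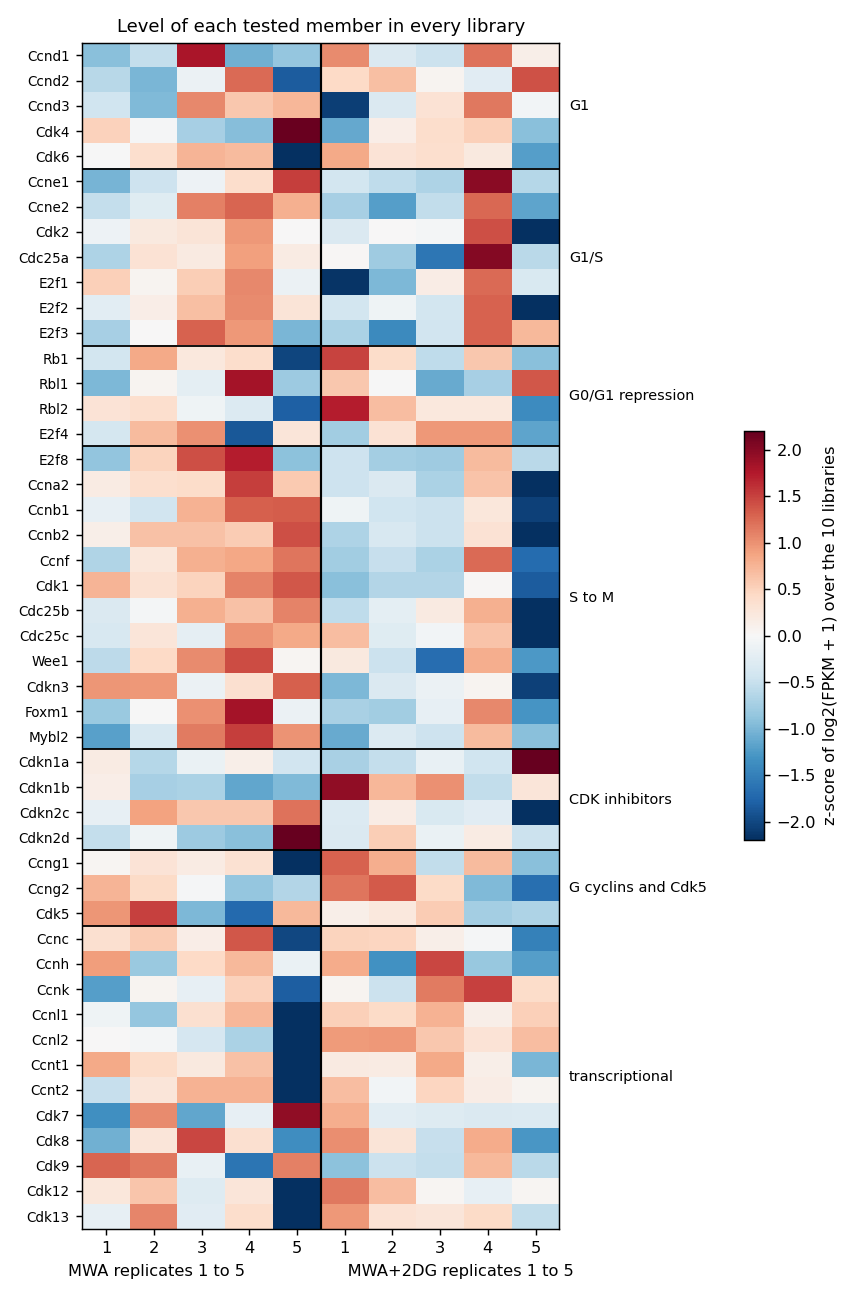
Level of each tested member in every library, as a z-score of log2(FPKM + 1) over the 10 libraries, with colours saturating beyond ±2.2; rows are grouped by phase and the vertical line parts the groups. MWA+2DG replicate 5 is the lowest library for 9 of 12 S to M members, and MWA replicate 5 is the lowest for 9 of 12 transcriptional members.

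Markers of germinal centre B cells, a list chosen with earlier results of these data known, also had negative fold changes. Of the 10 markers listed, 10 were tested, 10 had a negative fold change (median -0.54), and 8 were called lower, among them Rgs13 (-0.63), Mef2b (-0.60), Nuggc (-0.58), Mybl1 (-0.57), Gcsam (-0.51), Basp1 (-0.45) and S1pr2 (-0.43). Bcl6, the master transcription factor of germinal centre B cells, had -0.28 and Fas -0.18, and neither was called. Over all tested genes 1.87% were called lower, and the smallest adjusted p of the list was 0.995. Summed over the list, FPKM was between 201 and 334 in MWA libraries and between 134 and 213 in MWA+2DG libraries. In replicates 1 and 2 the median was -0.25 and in replicates 3 to 5 it was -0.72. MWA+2DG replicate 5 was lowest for this list too, with a mean of log2(FPKM + 1) of 3.74, where the other libraries of its group were at 4.23 to 4.37 and the MWA libraries at 4.28 to 4.99.

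Other lists of cell type markers had fewer calls, although some single fold changes were larger. B cell markers had a median of -0.09 (10 of 10 negative) and T cell markers a median of 0.17 (10 of 10 positive), with 0 called in either list. Of the 8 tested plasma cell markers 2 were called lower, Xbp1 (-0.39) and Mzb1 (-0.50), and the list median was -0.29 (7 of 8 negative). In replicates 1 and 2 the plasma cell median was 0.10 and in replicates 3 to 5 it was -0.56. Among 8 tested macrophage and neutrophil markers 4 were called lower, S100a9 (-1.61), S100a8 (-1.43), Lyz2 (-0.47) and Csf1r (-0.30). The median of this list was -0.22 (7 of 8 negative), and S100a8 and S100a9 were highest in MWA replicate 1. Among the markers tested, 2 of 9 listed for epithelium, 4 of 7 for red blood cells, 8 of 8 for node stroma and endothelium and 7 of 7 for liver, none was called. Summed FPKM over the 9 epithelial markers ran from 2.66 to 6.73 in MWA and from 2.52 to 15.2 in MWA+2DG, where replicate 5 was highest. The part of any of these cell types in the result for the S to M members was not tested.

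**Figure D5:**
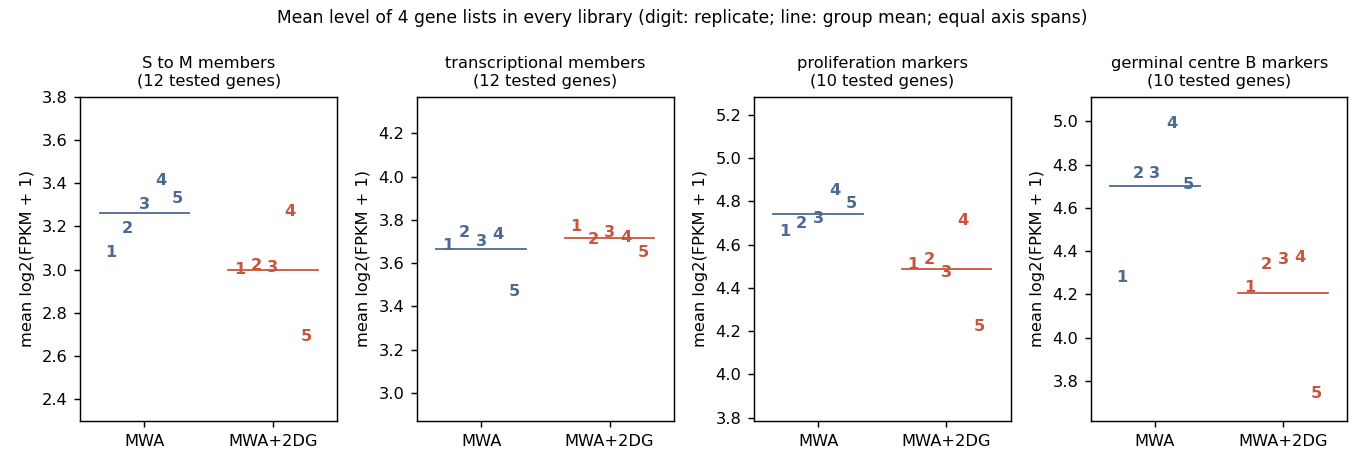
Mean of log2(FPKM + 1) over 4 gene lists in every library, with each digit giving the replicate, lines the group means, and equal spans on all vertical axes. For the S to M members, the proliferation markers and the germinal centre B cell markers, MWA+2DG replicate 5 is the lowest of the 10 libraries, at 2.69, 4.22 and 3.74; for the transcriptional members MWA replicate 5 is lowest, at 3.47.

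Some genes outside the members that act in S phase and mitosis were also called lower. The 10 proliferation markers had a median of -0.26, 10 of 10 negative, and 3 were called lower: Birc5 (-0.34), an inhibitor of apoptosis that also serves chromosome segregation, Stmn1 (-0.32), a microtubule destabiliser, and Mcm5 (-0.30), a subunit of the replicative helicase. Mki67 had a fold change of -0.27 ± 0.19 (SE, exact permutation p = 0.238) and was not called. Pcna, the sliding clamp of DNA polymerase, did not overlap between groups but stayed inside the threshold at -0.22. Stmn1 did not overlap either. Over all tested genes 68 (0.510%) had groups apart with MWA+2DG lower, and 1.87% were called lower by the rule. Of 11 genes listed as mitotic kinases, their regulators and anaphase-promoting complex components, 4 were called lower, Cdc20 (-0.35), Aurka (-0.33), Bub1 (-0.33) and Ube2c (-0.25), and the median was -0.25, with 10 of 11 negative. In the list of E2F partners, MuvB core and CDK adaptors, Cks2 was called, 1 of 14 tested.

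Cks2, a small protein that binds Cdk1, was at 49.3, 47.5, 48.9, 51.4 and 64.0 FPKM in MWA and at 35.8, 45.7, 41.4, 45.4 and 29.6 in MWA+2DG, so that the groups did not overlap. Its fold change was -0.40 ± 0.13 (SE, limma P = 0.0107, adjusted p = 0.995, exact permutation p = 0.00794). Tfdp1, the DNA-binding partner of the E2F factors, had -0.23 and was not called.

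Among the CDK inhibitors, a call was made in each direction. Cdkn1b, which encodes p27 and holds resting lymphocytes out of the cycle, was at 30.7, 27.4, 27.5, 25.9 and 26.5 FPKM in MWA and at 38.9, 33.2, 34.4, 28.1 and 31.2 in MWA+2DG. The MWA+2DG libraries exceeded every MWA library except in replicate 4. The fold change of 0.25 ± 0.09 (SE, limma P = 0.0177) was barely past the threshold, with an exact permutation p of 0.0159 and 0.0167 within the sets, and it was 0.30 in replicates 1 and 2 and 0.22 in replicates 3 to 5. Its call was lost under median ratio scaling and when MWA replicate 4 or 5 or MWA+2DG replicate 1, 2 or 3 was left out, with fold changes from 0.19 to 0.31 over the 10 libraries left out in turn.

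Cdkn2c, which encodes p18 and inhibits Cdk4 and Cdk6, was at 7.46, 8.98, 8.54, 8.53 and 9.46 FPKM in MWA and at 7.30, 7.92, 7.26, 7.35 and 4.99 in MWA+2DG. MWA replicate 1 lay inside the MWA+2DG range, and MWA+2DG replicate 5 lay well below the others. Cdkn2c differed by -0.28 ± 0.11 (SE, limma P = 0.0290, exact permutation p = 0.0159 and 0.0333 within the sets), with -0.09 in replicates 1 and 2 and -0.40 in replicates 3 to 5. Its call was lost without MWA+2DG replicate 5, without MWA replicate 2 and without MWA replicate 5.

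Cdkn1a, which encodes p21, the inhibitor induced by p53, had a fold change of 0.08 ± 0.14 (SE, exact permutation p = 0.913). It was at 5.91 to 6.56 FPKM in MWA+2DG replicates 1 to 4 and at 11.1 in replicate 5, while the MWA libraries ranged from 6.01 to 7.01. Replicate 5 was thus the lowest library for most S to M members and the highest for Cdkn1a. Of 10 tested p53 target genes none was called (median 0.02), and the smallest limma P belonged to Sesn2 (fold change 0.21, exact permutation p = 0.103). Cdkn2d, which encodes p19, was at 28.8 ± 5.82 FPKM in MWA and 28.1 ± 1.47 in MWA+2DG (SD, n = 5), a fold change of -0.02. Of 10 lymphocyte quiescence genes none was called either (8 positive, median 0.12), and Foxp1, a factor that keeps naive T cells quiescent, had the smallest P (fold change 0.24, exact permutation p = 0.0238).

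With all 10 libraries the G1 members were not called. Ccnd2, the D cyclin induced in stimulated lymphocytes, was at 23.9, 22.2, 26.1, 33.6 and 19.0 FPKM in MWA and at 29.0, 30.2, 27.0, 25.5 and 34.6 in MWA+2DG. Both extremes of the MWA group, replicates 5 and 4, framed most values of the other group. Its fold change was 0.24 ± 0.14 (SE, limma P = 0.117, exact permutation p = 0.159), with 0.35 in replicates 1 and 2 and 0.16 in replicates 3 to 5. Ccnd2 was called higher without MWA replicate 4 (0.35) and in replicates 1 and 2 alone, and without MWA replicate 5 its fold change was 0.15. Ccnd1 had a fold change of 0.09, Ccnd3 of -0.07, Cdk4 of -0.04 and Cdk6 of 0.03. Per length, Cdk4 was the most abundant of these in the MWA group, at 53.5 ± 5.28 FPKM (SD, n = 5), with Ccnd3 at 29.2 ± 2.99 and Ccnd2 at 25.0 ± 5.48, which overlapped each other, then Ccnd1 at 9.97 ± 1.40 and Cdk6 at 2.23 ± 0.453.

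At the G1/S transition Ccne2 had the smallest P. FPKM of this E cyclin was 3.65, 3.89, 5.40, 5.63 and 5.00 in MWA and 3.46, 3.06, 3.63, 5.60 and 3.10 in MWA+2DG. The MWA+2DG libraries were below every MWA library except replicate 4, which was close to the MWA maximum. The fold change was -0.27 ± 0.15 (SE, limma P = 0.101, exact permutation p = 0.111 and 0.0833 within the sets), with -0.17 in replicates 1 and 2 and -0.34 in replicates 3 to 5. Ccne2 was called lower with the replicate set as a term, which gave 7 members lower in place of 6, with the replicate number as a block, and without MWA+2DG replicate 4 (-0.39). Ccne1 (-0.03), Cdk2 (-0.09) and Cdc25a (-0.03), the phosphatase that activates Cdk2, were closer to 0. Cdk2 was at 13.6 ± 0.659 FPKM in MWA and 12.9 ± 1.98 in MWA+2DG (SD, n = 5).

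The activator E2F factors E2f1, E2f2 and E2f3 had fold changes of -0.15, -0.15 and -0.04. E2f1 was at 4.70, 4.38, 4.72, 5.10 and 4.25 FPKM in MWA and at 3.05, 3.70, 4.44, 5.26 and 4.11 in MWA+2DG. Its groups overlapped, with the lowest values in MWA+2DG replicates 1 and 2. E2f1 differed by -0.15 ± 0.11 (SE, limma P = 0.193, exact permutation p = 0.206), with -0.34 in replicates 1 and 2 and -0.02 in replicates 3 to 5. It was called lower in replicates 1 and 2 alone. Per length E2f2 was the most abundant of the activators in MWA, at 17.7 ± 1.23 FPKM (SD, n = 5), above E2f1 at 4.63 ± 0.332 and E2f3 at 3.89 ± 0.639, whose ranges overlapped.

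Pocket proteins bind E2F factors and repress their targets in resting cells. Rbl2, which encodes p130, the pocket protein of quiescent cells, was at 12, 12.1, 11.4, 11.1 and 9.11 FPKM in MWA and at 14.4, 12.6, 11.9, 11.9 and 9.63 in MWA+2DG. The groups overlapped, and replicate 5 was the lowest in each. Rbl2 differed by 0.10 ± 0.11 (SE, limma P = 0.356, exact permutation p = 0.341), with 0.15 in replicates 1 and 2 and 0.07 in replicates 3 to 5. Rb1 had a fold change of 0.10 and Rbl1 of 0.01. E2f4, the repressor E2F that works with p130, was the third most abundant member per length at 41.4 ± 2.05 FPKM in MWA and 41.6 ± 1.80 in MWA+2DG (SD, n = 5), and its fold change of 0.01 had a 95% confidence interval from -0.13 to 0.15.

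The G cyclins and Cdk5 were not called. Ccng1, a p53 target that takes part in the feedback on p53, was at 35.0, 35.8, 35.4, 35.9 and 28.6 FPKM in MWA and at 39.1, 37.4, 33.2, 37.1 and 32.1 in MWA+2DG. Without the low MWA replicate 5, the MWA libraries lay within a narrow band inside the MWA+2DG range. The fold change was 0.07 ± 0.09 (SE, limma P = 0.456, exact permutation p = 0.468), with 0.11 in replicates 1 and 2 and 0.04 in replicates 3 to 5. Ccng2, a cyclin of non-dividing cells, had 0.03, and Cdk5, best known from neurons, had -0.03.

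The transcriptional cyclins and CDKs had 0 of 12 called. Ccnl2, which partners the CDK11 kinases and acts in RNA splicing, was the most abundant member per length. It was at 77.7, 77.4, 75.4, 73.4 and 64.0 FPKM in MWA and at 83.8, 83.9, 81.5, 79.6 and 82.0 in MWA+2DG, and every MWA+2DG library was above every MWA library. Groups that do not overlap with MWA+2DG higher were found for 39 of all tested genes (0.292%). The fold change of 0.16 ± 0.07 (SE, limma P = 0.0409, exact permutation p = 0.00794 and 0.0167 within the sets) had a 95% confidence interval from 0.01 to 0.31 and did not reach the threshold. It was 0.11 in replicates 1 and 2 and 0.19 in replicates 3 to 5.

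Cdk12, which with Ccnk phosphorylates the tail of RNA polymerase II during elongation, had the smallest P among the transcriptional CDKs. It was at 5.36, 5.73, 4.85, 5.38 and 3.10 FPKM in MWA and at 6.33, 5.81, 5.16, 4.95 and 5.16 in MWA+2DG. All but the low MWA replicate 5 lay in overlapping ranges. Cdk12 differed by 0.16 ± 0.13 (SE, limma P = 0.261, exact permutation p = 0.373), with 0.11 in replicates 1 and 2 and 0.19 in replicates 3 to 5. Cdk13, the kinase most related to it, had 0.11 and their cyclin Ccnk 0.14.

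Cdk9 with Ccnt1 or Ccnt2 forms P-TEFb, which releases paused polymerase. Cdk9 was at 28.8 ± 2.09 FPKM in MWA and 27.6 ± 1.07 in MWA+2DG (SD, n = 5), with a fold change of -0.06 and a 95% confidence interval from -0.21 to 0.09. Ccnt1 had 0.02 and Ccnt2 had 0.06. The CDK-activating kinase pair Cdk7 and Ccnh, which also belongs to the general transcription factor TFIIH, had -0.01 and -0.04, and the Mediator kinase pair Cdk8 and Ccnc had 0.02 and -0.02. Ccnl1, the relative of Ccnl2, had 0.14. Widths of these intervals leave room for changes of either sign at this number of libraries.

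MWA replicate 5 was the lowest of the 10 libraries for 9 of the 12 transcriptional members, and it had the highest summed FPKM of the series. The mean of log2(FPKM + 1) over these members was 3.47 there, 3.68 to 3.74 in the other MWA libraries and 3.65 to 3.77 in the MWA+2DG libraries. Without it, the median fold change of the 12 members was -0.0037. Partners of these kinases, 10 in all and among them the Mediator genes Med12 and Med13 and the P-TEFb inhibitor Hexim1, were tested and none was called (7 positive, median 0.11), with the smallest P for Hexim1 (fold change 0.12, exact permutation p = 0.0635). Of 9 tested cyclins and CDKs outside the members none was called either (median 0.03), and Ccnj had the smallest P (fold change 0.21, exact permutation p = 0.0397).

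The balance of calls changed on rescaling to a fixed sum, and stayed near that of the deposited FPKM under the other scalings. Under quantile normalization 240 genes were lower and 143 higher (37.3% of calls higher), and under median ratio scaling 253 and 131 (34.1%). With each library rescaled to a sum of 1000000, 3 members were lower, Ccnb2, Cdk1 and Cdkn3, and 1 was higher, while over all tested genes 159 were lower and 328 higher, so that 67.4% of all calls were higher, against 33.8% with FPKM as deposited. That rescaling moved the median of all tested genes from 0.01 to 0.07, and the median of the S to M members was then -0.18 and that of the transcriptional members 0.11. Reads of Ccnb1, Ccnb2 and Ccnd3 could be shared with processed copies in the genome. Ccnb2-ps was at 1.40 ± 0.320 FPKM in MWA and 1.27 ± 0.290 in MWA+2DG, and Ccnb1-ps at 0.590 ± 0.224 and 0.534 ± 0.224 (SD, n = 5), both well below the levels of Ccnb2 and Ccnb1.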

How the data were processed

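Poly(A) mRNA of TDLNs was sequenced in 5 MWA and 5 MWA+2DG libraries. The authors deposited FPKM per gene, made with HISAT2, StringTie and ballgown after read checks with fastp. The submitters' processing notes also name cutadapt 1.9, HISAT2 2.0.4, UMI-tools, StringTie 1.3.4d and mm9, and no annotation release is named there. FPKM is divided by transcript length and mapped reads, whole reads could not be recovered from the low values.

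Of 33643 identifiers 33541 matched a symbol, and the values of 57 symbols with several identifiers were summed. The 13334 genes whose mean reached 1 FPKM were fitted by limma (3.58.1, under R 4.3.3) after a log2(FPKM + 1) transform, with no covariate, and p-values were adjusted by Benjamini-Hochberg over these genes. The study's methods name limma with P below 0.05 and a log fold change beyond 0.25, and give no pseudocount, filter, log base or adjustment. The fit was tested on simulated data. Single genes were also compared with two-sided exact permutation tests (scipy 1.17.1, Python 3.11.15).

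The members, role groups, pathway lists and marker lists were chosen with earlier results of these data known. Described in full were the called members and, in each of the 12 role groups, the tested member of smallest P. The others are given by mean, fold change or range. In the pathway lists the called genes and the gene of smallest P are named, and 1 called marker is not reported here by name; Mki67, Pcna, Tfdp1, Med12, Med13, Bcl6 and Fas were added after their values were seen. Other settings tried were pseudocount 0.1, the filter dropped or raised to 5 FPKM, rescaling to a fixed sum, quantile and median ratio scaling, limma-trend, the Wilcoxon test, a replicate block, the replicate set as a term, other fold change thresholds and leaving out each library. Each replicate set alone was added after seeing the data.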

Additional observations from a re-analysis of the deposited data

Results flagged for a closer look

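In 14 of the 96 groups of 5 libraries (48 members, each in the MWA and the MWA+2DG group) the highest or lowest library lay far from the other 4, by Dixon's criterion at 95%. Chance gives about 1 in 20 such groups.

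MWA replicate 5 gave 4 of these values. It was high for Cdkn2d at 39.0 FPKM, where the nearest library was at 27.9, and low for Ccng1 at 28.6, Ccnt1 at 7.11 and Cdk6 at 1.45, where the nearest libraries were at 35.0, 9.46 and 2.24. Also far from the other MWA libraries were Ccnd1 at 12.5 in replicate 3 and Ccna2 at 24.7 in replicate 4, with the nearest libraries at 9.68 and 21.1.

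In the MWA+2DG group replicate 4 was high for the E cyclins Ccne1, at 10.3 FPKM against 7.02, and Ccne2, at 5.60 against 3.63, for the repressor E2f8, at 3.48 against 2.60, and for Cdk9, at 29.4 against 27.4. Replicate 5 was high for Cdkn1a, at 11.1 against 6.56, and low for Cdkn2c, at 4.99 against 7.26, and Ccnc, at 4.87 against 5.47. Replicate 1 was high for Cdk7, at 7.55 against 7.01, in a group with a narrow range. In each pair the second value is the nearest library of the group.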

How the results depend on the processing

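With 5 libraries per group and depth unknown, few single differences were resolved. Cdk1 and Ccnb2 kept their call in 21 of 21 alternatives with a limma fit and Cdkn3 in 19 of 20, all but replicates 3 to 5 alone. Calls were kept in 15 of 21 for Cdkn2c, 14 of 21 for Ccna2, 13 of 21 for Cdkn1b and 10 of 21 for Ccnb1. Among 978 member fold changes under alternatives, 868 kept direction and side of the threshold, 32 lost a call, 10 gained one and 68 changed sign, most of them near 0. The causes were not tested.

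Over the libraries left out in turn, members called lower ranged from 3 to 9 and higher from 0 to 1, and all tested genes called lower from 176 to 315 and higher from 82 to 222. A filter of 5 FPKM, which leaves fewer genes, gave 161 genes lower and 69 higher. Rescaling to 1000000 gave 3 members and 159 genes lower and 328 genes higher. Median ratio scaling left 0 members higher. The Wilcoxon test gave 143 genes lower and 67 higher. Without a fold change threshold 2 members were higher, and with the threshold on the natural log scale 3 were lower and 0 higher. Alone, replicates 1 and 2 gave 301 genes lower and 388 higher, with 4 members lower and 1 higher, and replicates 3 to 5 gave 389 genes lower and 167 higher, with 5 members lower and 0 higher. With the replicate set as a term 7 members were lower and 1 higher, beside 297 genes lower and 155 higher.

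Fold changes that changed sign were, on rescaling to 1000000, Cdk4 0.02, Ccne1 0.03, Cdc25a 0.02, E2f3 0.01, Cdkn2d 0.05, Cdk5 0.03, Ccnc 0.04, Ccnh 0.02, and Cdk7 0.05, where the log2 fold change of Cdk9 was 0.0033. Under quantile normalization they were Cdk4 0.01 and Cdkn2d 0.01, and the log2 fold change of Rbl1 was -0.0023. In replicates 1 and 2 alone they were Ccne1 0.05, E2f4 -0.02, Ccnb1 0.01, Cdc25c 0.04, Mybl2 0.02, Cdkn1a -0.09, Cdkn2d 0.07, Ccnc 0.0019, Ccnt1 -0.05 and Cdk7 0.04, and in replicates 3 to 5 alone E2f3 0.02, Rbl1 -0.10, Ccng2 -0.05, Cdk5 0.07, Cdk8 -0.05 and Cdk9 0.01. With 1 library left out, values on both sides of 0 were found for Ccnc (-0.07 to 0.02), Ccnd3 (-0.12 to 0.01), Ccne1 (-0.13 to 0.05), Ccng2 (-0.04 to 0.12), Ccnt1 (-0.06 to 0.06), Ccnt2 (-0.01 to 0.09), Cdk4 (-0.07 to 0.01), Cdk5 (-0.11 to 0.03), Cdk6 (-0.06 to 0.09), Cdk7 (-0.04 to 0.03), Cdk8 (-0.02 to 0.06), Cdkn1a (-0.07 to 0.14), Cdkn2d (-0.06 to 0.10), E2f3 (-0.10 to 0.02), E2f4 (-0.02 to 0.03), Rb1 (-0.01 to 0.17) and Rbl1 (-0.07 to 0.12).

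Libraries of the same number in both groups correlated at 0.0334 to 0.501 in their deviations from the group means. Only replicate 2 correlated best with its own number, so no pairing by number was seen in these values. With the replicate block 5 members were lower, Ccne2 gained and Ccnb1 and Cdkn2c lost, and 1 was higher, beside 285 genes lower and 164 higher.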
